A study of Homo sapiens with 8 samples.

Results

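miRNA numbers are given in the order of registration, so the human miRNAs with a number of 3000 or higher are those named most recently, mostly from deep sequencing. In the small RNA-seq table of 4 tumor-derived cell lines, 1442 of 2588 mature miRNA names carried such a number. The 289 names that had a read in both replicate libraries of at least 1 line were analysed here and are called members. Of the other 1153 names, 848 had no read in any of the 8 libraries and 305 had reads that did not meet this rule. By the same rule, 597 of 1146 names with a lower number, called earlier-named miRNAs, were kept. Both sets were formed by the number alone, and the date on which each name was registered was not looked up. Since the reads chose the members, their presence in a line was taken as a description and not as a finding.

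The study examined IGF2BP1, an mRNA-binding protein that protects target mRNAs from miRNAs, and these libraries measured the miRNAs of untreated parental cells. The lines were derived from ovarian cancer (ES-2), melanoma (MV-3), hepatocellular carcinoma (Huh-7) and lung adenocarcinoma (A-549). Each had 2 libraries, made from total RNA of cells seeded for 48 h in the same serum-supplemented medium. The study speaks of biological replicates, whereas the labels do not say whether they came from separate cultures, so p-values measure the spread between these libraries.

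A mature miRNA is a short RNA cut out of a hairpin precursor, first by Drosha in the nucleus and then by Dicer in the cytoplasm. Loaded onto an Argonaute protein, it pairs with target mRNAs mainly through its seed, bases 2 to 8 from the 5′ end, and lowers their stability or translation. Either strand of the hairpin can be kept, and the arms are named 5p and 3p. Many late-registered names rest on few reads, and some overlap introns, exons or other small RNA genes.

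Sequences of the members that the results turn on are shown 5′ to 3′ with the seed in capitals, as given by RefSeq on GRCh38.p14. RefSeq held a mature sequence for 260 of the 289 members. The first lines hold the most abundant members. They are followed by the miR-3689 group, read almost entirely in ES-2, by miR-3152, read in ES-2 and MV-3, and by members that were highest in Huh-7.
miR-3613-5p: uGUUGUACuuuuuuuuuuguuc
miR-3615: uCUCUCGGcuccucgcggcuc
miR-4521: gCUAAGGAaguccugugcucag
miR-7974: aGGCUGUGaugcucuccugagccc
miR-7706: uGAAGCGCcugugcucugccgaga
miR-3689f: uGUGAUAUcgugcuuccuggga
miR-3689a-5p, miR-3689b-5p and miR-3689e: uGUGAUAUcaugguuccuggga
miR-3152-5p: aUUGCCUCuguucuaacacaag
miR-3152-3p: uGUGUUAGaauaggggcaauaa
miR-3129-5p: gCAGUAGUguagagauugguuu
miR-3129-3p: aAACUAAUcucuacacugcugc
miR-3187-3p: uUGGCCAUggggcugcgcgg
miR-3140-3p: aGCUUUUGggaauucagguagu
miR-4713-5p: uUCUCCCAcuaccaggcuccca

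The members were rare in every line. They held 0.0571% ± 0.00138 of all miRNA reads in A-549 (SD, n = 2), 0.132% ± 0.00377 in ES-2, 0.153% ± 0.000202 in MV-3 and 0.313% ± 0.00661 in Huh-7. The 2 libraries of a line lay close together, and no library of one line overlapped another line. Abundance is given below as normalised CPM, the deposited value, in which the counts per library total are divided by a composition factor (TMM). On this scale the members summed to 950 ± 6.14 in A-549, 1319 ± 18.6 in MV-3, 1541 ± 66.5 in ES-2 and 1874 ± 16.1 in Huh-7. A-549 was lowest and Huh-7 highest on both scales, whereas the order of ES-2 and MV-3 turned with the scaling. These sums rest on names chosen for having reads, and were not tested.

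**Figure D1:**
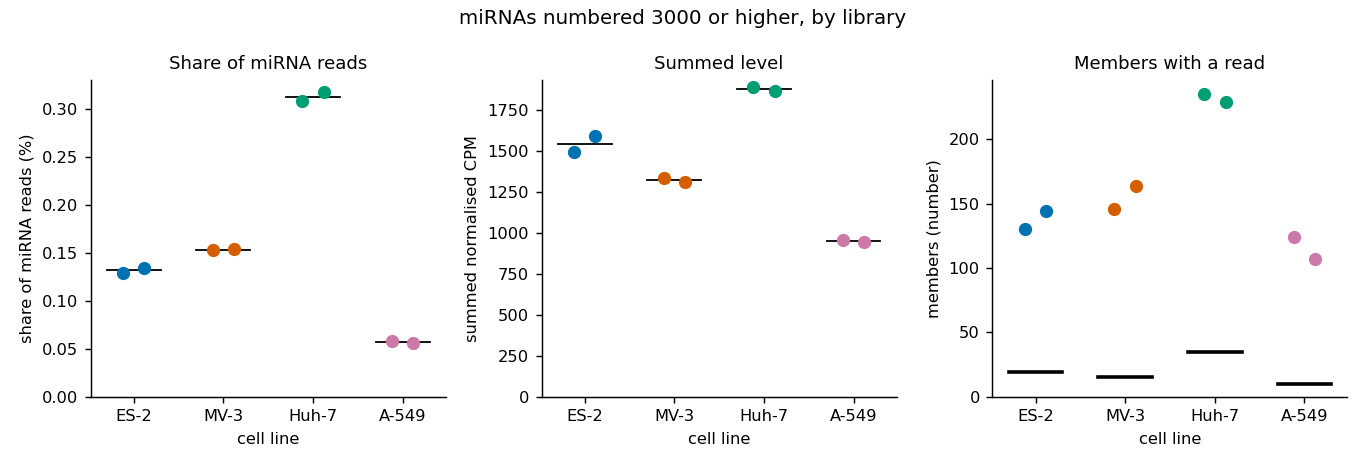
Members by library in the 4 cell lines, with the share of miRNA reads in percent on the left, summed normalised CPM in the middle and the number of members with a read on the right. Each point is 1 library, thin bars are line means, and thick bars on the right mark the members at 10 normalised CPM or more in both libraries, from 10 in A-549 to 35 in Huh-7.

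Huh-7 also held the largest number of members. In both libraries, 216 of the 289 members had a read in Huh-7, 119 in MV-3, 100 in ES-2 and 73 in A-549. Earlier-named miRNAs were spread more evenly, with 472, 425, 393 and 458 names in the same order. Depth differed between the lines, and was highest in Huh-7 once the composition factor was included. A detection floor of 3 reads corresponded to between 0.845 normalised CPM in a Huh-7 library and 2.45 in an A-549 library. At a common level of 2.45 normalised CPM in both libraries, 80 members were found in Huh-7, 53 in ES-2, 46 in MV-3 and 37 in A-549. The order of Huh-7 first and A-549 last was thus also present at 1 level for all libraries. For earlier-named miRNAs the order at this level was different, with 395 in A-549, 361 in Huh-7, 338 in MV-3 and 333 in ES-2.

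Most members were of low abundance even in their highest line. The median over members of the mean in the highest line was 3.24 normalised CPM, against 46.2 for earlier-named miRNAs. Below 2 normalised CPM lay 92 members, 149 lay between 2 and 10, 44 between 10 and 100, and 4 between 100 and 1000. The highest line mean of a member was 360.4, whereas 93 earlier-named miRNAs were at 1000 or more. A total of 55 members had at most 10 reads in all 8 libraries together.

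**Figure D2:**
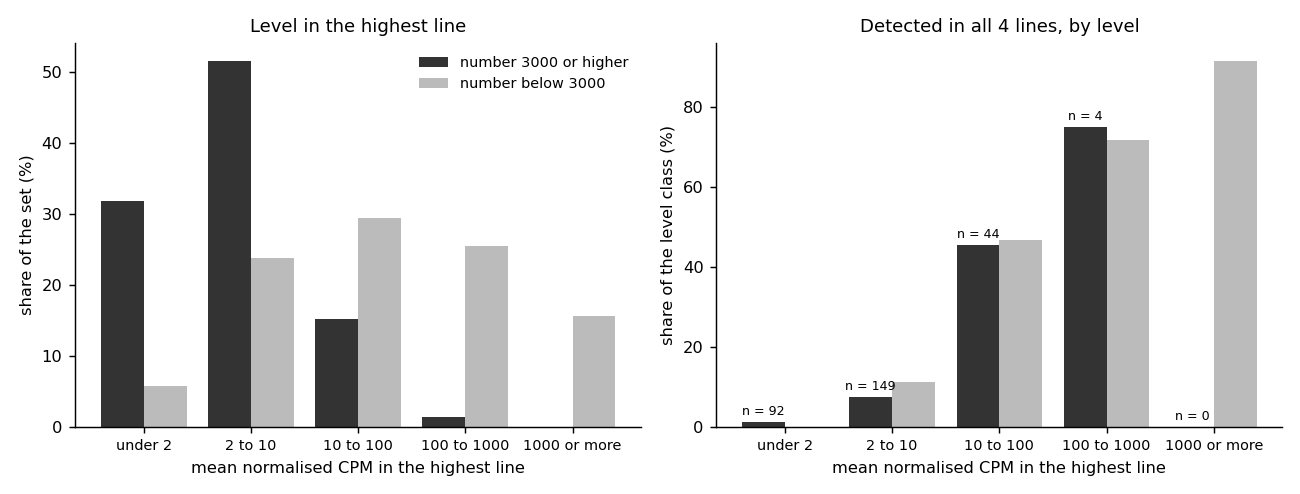
Left, share of members and of earlier-named miRNAs by mean normalised CPM in the highest line. Right, share of each level class with a read in both libraries of all 4 lines, with the number of members above the dark bars. Between 10 and 100 normalised CPM the shares detected in 4 lines were 45.5% for members and 46.6% for earlier-named miRNAs. The shares in a single line, not drawn, were 31.8% and 14.8% in this class.

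The share of names detected in all 4 lines rose with the level in both sets. Of the members, 170 had a read in both libraries of 1 line, 54 of 2 lines, 30 of 3 lines and 35 of all 4 lines. Over all levels, 12.1% of members and 48.9% of earlier-named miRNAs were in 4 lines. Within the class of 10 to 100 normalised CPM these shares were 45.5% and 46.6%, and from 2 to 10 they were 7.38% and 11.3%. In the latter class, 48.3% of members and 42.3% of earlier-named miRNAs were found in a single line. From 10 to 100 normalised CPM, where the medians were 19.9 and 27.9, a single line held 31.8% of members and 14.8% of earlier-named miRNAs. These shares were not tested.

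A level of 10 normalised CPM in both libraries of a line was reached by 43 members, 14.9% of them. Over all 886 names kept by the detection rule, this share was 50.1%, and for earlier-named miRNAs it was 67.2%. Members at this level numbered 35 in Huh-7, 19 in ES-2, 15 in MV-3 and 10 in A-549, against 269, 252, 264 and 309 earlier-named miRNAs. The 43 members held 74.2% of all reads of the 289, and the 10 most abundant held 46.0%. Just inside the limit were miR-4796-3p, miR-3145-3p and miR-3928-3p, with 10.7, 11 and 11.3 normalised CPM in the lower library of the line. Just outside were miR-3942-5p with 9.29, miR-6747-3p with 8.78 and miR-4449 with 8.73.

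Among the 43, 8 members were at this level in all 4 lines, 3 in 3 lines, 6 in 2 lines and 26 in 1 line. Of these 26, 20 were at this level in Huh-7, 5 in ES-2 and 1 in MV-3. The highest line was Huh-7 for 25 of the 43 members, ES-2 for 10, MV-3 for 7 and A-549 for 1. For earlier-named miRNAs at 10 normalised CPM, Huh-7 was highest for 135, A-549 for 126, ES-2 for 77 and MV-3 for 63. When reads were scaled without the composition factor, the highest line changed for 7 of the 43 members. For 32 of them, both libraries of the highest line lay above the other 6 libraries, which over all 444 names at this level was true of 79.7%.

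**Figure D3:**
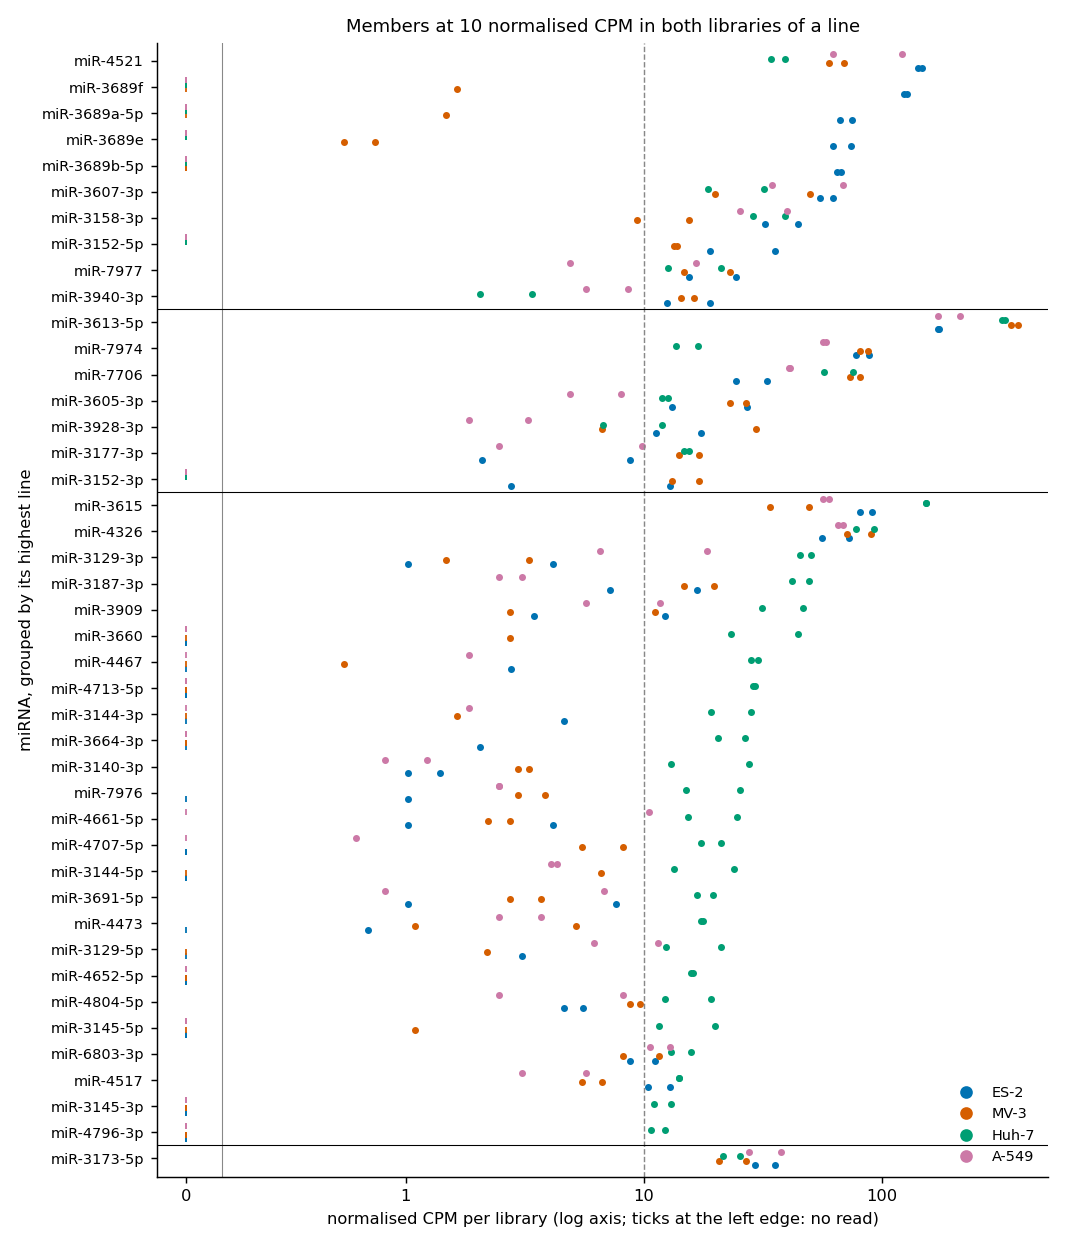
Normalised CPM in each library, on a log axis, for the 43 members at 10 or more in both libraries of a line (dashed line). Rows are grouped by the highest line, in the vertical order of the legend. Marks at the left edge are libraries without a read. The 25 members highest in Huh-7 form the largest block.

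The 8 members at 10 normalised CPM in all lines were miR-3613-5p, miR-3615, miR-4521, miR-4326, miR-7974, miR-7706, miR-3607-3p and miR-3173-5p. Of the 289 members, 74 passed the filter on low values and 215 did not. Tests were counted only over the 29 tested members with a read in every library. Of these, 24 also passed the filter on the 6 libraries outside their highest line, and 5 passed through their highest line alone, so that the filter itself favoured a difference. limma called 10 of these 29 as differing by line, with 0.01 as the limit of the adjusted p. Of all 316 tested names with a read in every library, 64.2% were called, and edgeR called 9 of the 29 members. Of the 24, limma called 9, against 66.1% of the 301 names of that kind. Removing a Huh-7 library lowered the count of members to 4, and removing the first MV-3 library lowered it to 6.

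miR-3613-5p was the most abundant member. Its mature sequence lies at chr13:49996465-49996486 on the minus strand (GRCh38), in an intron of DLEU2, a long non-coding RNA gene known as the host of miR-15a and miR-16-1. In replicate order, normalised CPM was 212 and 172 in A-549, 171 and 173 in ES-2, 318 and 329.6 in Huh-7, and 372 and 348 in MV-3. All MV-3 and Huh-7 libraries thus lay above all ES-2 and A-549 libraries. On the log2 scale MV-3 exceeded ES-2 by 1.06 ± 0.12 (SE, limma adjusted p = 0.000751) and A-549 fell below MV-3 with a difference of -0.91 ± 0.12 (limma adjusted p = 0.00101). Huh-7 and MV-3 differed by -0.15 ± 0.12 (Huh-7 minus MV-3, limma adjusted p = 0.325), and without the composition factor Huh-7 was the highest line. Over the 4 lines, limma's adjusted p was 0.000502.

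miR-3615 was highest in Huh-7. Its hairpin at chr17:74748613-74748699 (plus strand) overlaps an exon of NHERF1, which codes for a scaffold protein of the cell membrane. Normalised CPM was 56.6 and 59.7 in A-549, 80.5 and 90.9 in ES-2, 153 and 153 in Huh-7, and 49.6 and 34.0 in MV-3. No library of another line reached those of Huh-7. Huh-7 exceeded MV-3 by 1.87 ± 0.21 (SE, limma adjusted p = 0.000342), whereas its difference from ES-2, 0.83 ± 0.21, missed the threshold (limma adjusted p = 0.0141). The test among the 4 lines gave an adjusted p of 0.000971 in limma, and this call was lost when either Huh-7 library was removed.

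miR-7974, in contrast to miR-3615, was lowest in Huh-7. It lies at chr19:11495544-11495622 (minus strand) in an intron of the zinc finger gene ZNF653. Normalised CPM was 56.6 and 58.1 in A-549, 88.2 and 78.1 in ES-2, 16.9 and 13.7 in Huh-7, and 80.7 and 87.3 in MV-3. Huh-7 lay below every other library, and ES-2 and MV-3 overlapped. Huh-7 minus ES-2 was -2.37 ± 0.20 (SE, limma adjusted p = 7.8e-05), Huh-7 minus MV-3 was -2.39 ± 0.20 (limma adjusted p = 8.2e-05), and A-549 minus Huh-7 was 1.85 ± 0.20 (limma adjusted p = 0.000255). Of the tested members with a read in every library, miR-7974 had the lowest adjusted p among the 4 lines, 0.000135 in limma.

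miR-4521, encoded between genes at chr17:8186945-8187004 (plus strand), was highest in ES-2. Its normalised CPM was 62.2 and 121 in A-549, 142 and 147 in ES-2, 34.1 and 39.3 in Huh-7, and 69.6 and 59.8 in MV-3. Both ES-2 libraries lay above all others, and the A-549 replicates were far apart. Huh-7 minus ES-2 was -1.95 ± 0.32 (SE, limma adjusted p = 0.00186), and the test among lines gave an adjusted p of 0.00623, which was lost when any library of ES-2, MV-3 or Huh-7 was removed. With library size only, ES-2 was still highest but A-549 was lowest.

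miR-7706 overlaps an exon of AKAP13, an anchoring protein of protein kinase A, at chr15:85380596-85380662 (plus strand). It had 40.6 and 40.9 normalised CPM in A-549, 24.3 and 32.9 in ES-2, 57.2 and 75.5 in Huh-7, and 73.3 and 81.2 in MV-3. ES-2 was lowest, and MV-3 and Huh-7 overlapped, with Huh-7 the higher line without the composition factor. MV-3 minus ES-2 was 1.42 ± 0.24 (SE, limma adjusted p = 0.00424), and among the 4 lines the adjusted p of limma was 0.00526. The call was lost with RLE factors and when any library but the second of ES-2 was removed.

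The other 3 members at 10 normalised CPM in all lines were not called. miR-4326 ranged from 56.2 to 92.6 normalised CPM over the 8 libraries, with overlapping lines (limma adjusted p = 0.286). miR-3607-3p had 34.5 and 68.7 in A-549, 54.8 and 62.1 in ES-2, 18.6 and 32.1 in Huh-7, and 20 and 49.9 in MV-3 (limma adjusted p = 0.215). Replicates of this name differed up to 2.50-fold in MV-3, the largest ratio among members at 10 normalised CPM in a line. miR-3173-5p, encoded in an intron of DICER1, the gene of the enzyme that cuts miRNA hairpins, ranged from 20.7 to 37.6 (limma adjusted p = 0.337).

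Members that stood out in Huh-7 had reads in the other lines as well in some cases. For miR-3129-3p, encoded in an intron of the collagen gene COL5A2, normalised CPM was 18.5 and 6.54 in A-549, 4.17 and 1.03 in ES-2, 45.3 and 50.5 in Huh-7, and 1.48 and 3.29 in MV-3. Huh-7 minus ES-2 was 3.92 ± 0.68 (SE, limma adjusted p = 0.00253) and Huh-7 minus MV-3 was 3.90 ± 0.68 (limma adjusted p = 0.00265), whereas A-549 minus Huh-7, -2.01 ± 0.68, was not called (limma adjusted p = 0.0383). Huh-7 thus lay above all other libraries, with A-549 next, and without Huh-7 the filter was passed through A-549. Among the 4 lines limma gave an adjusted p of 0.00447, which was lost without either library of Huh-7 or MV-3, or without the second of ES-2.

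miR-3187-3p, at chr19:813584-813653 opposite the gene PLPPR3, was also highest in Huh-7 and lowest in A-549. Its values were 3.08 and 2.45 normalised CPM in A-549, 16.7 and 7.19 in ES-2, 42.0 and 49.5 in Huh-7, and 14.8 and 19.8 in MV-3. A-549 minus Huh-7 was -3.63 ± 0.47 (SE, limma adjusted p = 0.000586) and A-549 minus MV-3 was -2.27 ± 0.47 (limma adjusted p = 0.00669). Huh-7 was not called above ES-2, with 1.95 ± 0.47 (limma adjusted p = 0.0107), or above MV-3, with 1.36 ± 0.47 (limma adjusted p = 0.0451). A-549 minus ES-2, -1.68 ± 0.47, was not called either (limma adjusted p = 0.0224). The ES-2 and MV-3 libraries overlapped each other, and those of Huh-7 and A-549 lay apart from them. The call among the 4 lines (limma adjusted p = 0.0021) was lost when a library of Huh-7 or A-549 was removed.

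miR-3140-3p is described without a p-value, since it passed the filter through Huh-7 alone. It lies in an intron of FBXW7, the gene of a ubiquitin ligase subunit and tumor suppressor. Normalised CPM was 1.23 and 0.818 in A-549, 1.39 and 1.03 in ES-2, 13 and 27.7 in Huh-7, and 2.96 and 3.29 in MV-3. Reads outside Huh-7 were few, between 1 and 6 in a library, and the Huh-7 replicates differed 2.14-fold. It was the 1 member of the 29 that limma called above each of the other 3 lines, a criterion met by 28.5% of the 316 names with a read in every library. The filter favoured this call, so it was not taken as a result about miR-3140-3p. This call was lost with DESeq2, with a pseudocount of 0.1, without a filter, and without the second ES-2 or the first A-549 library. Of the 24 members that passed the filter without their highest line, limma called 0 in this way, with 4 at an unadjusted p below 0.05.

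The other called members were miR-4449 and miR-3940-3p. miR-4449 had 1.23 and 1.64 normalised CPM in A-549, 10.4 and 8.73 in ES-2, 7.04 and 7.86 in Huh-7, and 1.48 and 1.65 in MV-3. ES-2 and Huh-7 lay above MV-3 and A-549, although without the composition factor Huh-7 rather than ES-2 was highest. A-549 minus ES-2 was -2.12 ± 0.30 (SE, limma adjusted p = 0.00116), and the call among the lines (limma adjusted p = 0.00101) was not made by DESeq2. miR-3940-3p, in an exon of KHSRP, an RNA-binding protein involved in miRNA processing, had 8.62 and 5.72 in A-549, 12.5 and 19.0 in ES-2, 3.38 and 2.05 in Huh-7, and 16.3 and 14.3 in MV-3. Huh-7 was lowest with TMM and A-549 without it. Its call (limma adjusted p = 0.00828) was not made by edgeR and was lost without any 1 library.

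The miR-3689 group was detected almost entirely in ES-2. The ES-2 libraries held 183 and 242 reads of miR-3689f, those of MV-3 held 0 and 3, and Huh-7 and A-549 had none. This amounted to 126 ± 1.95 normalised CPM in ES-2 (SD, n = 2). Set against the floor of 3 reads, its ES-2 level was at least 51.2-fold higher than that of A-549 and Huh-7. Under the name miR-3689b-5p, 93 and 131 reads were counted in ES-2 and none elsewhere, a count that depends on how reads of identical sequences were assigned.

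For 3 names of this group reads cannot be told apart. miR-3689a-5p, miR-3689b-5p and miR-3689e have 1 mature sequence with 3 exact copies in the genome. Their level in ES-2 was 70.9 ± 5.80, 65.9 ± 1.92 and 68.2 ± 8.11 normalised CPM, and reads of 1 sequence may have been shared out between them. Summed, they had 291 and 405 reads in ES-2, 3 and 1 in MV-3 and 0 in Huh-7 and A-549, or 205 ± 4.23 normalised CPM in ES-2. miR-3689f differs from them by A10G and G13C (miR-3689a-5p first, positions counted from the 5′ end) and has the same seed. The hairpins lie outside annotated genes on the minus strand of chromosome 9, with miR-3689a at chr9:134849487-134849564, miR-3689b at chr9:134850125-134850272 and miR-3689e at chr9:134850570-134850641. The mature miR-3689f lies beside them at chr9:134850783-134850804. Counted as 1 sequence, the 3 names lower the number of members at 10 normalised CPM from 43 to 41.

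miR-3152 was shared by ES-2 and MV-3 and had no read in Huh-7 or A-549. Its hairpin lies at chr9:18573306-18573379 (plus strand) in an intron of ADAMTSL1, a gene of an extracellular matrix protein. Reads of miR-3152-5p were 51 and 37 in ES-2 and 18 and 25 in MV-3, or 27.2 ± 11.6 and 13.5 ± 0.279 normalised CPM. Of miR-3152-3p, ES-2 had 4 and 25 reads and MV-3 had 23 and 24. Both arms were thus present in the same 2 lines, with the 5p arm higher in ES-2 and the 3p arm higher in MV-3 by their means, and the libraries of the 3p arm differed between the ES-2 replicates.

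In Huh-7, 4 members at 10 normalised CPM had no read in another line. Of these, miR-4713-5p, encoded in an intron of its non-coding host gene MIR4713HG at chr15:51242190-51242264, had 102 and 86 reads. Its level of 29.0 ± 0.460 normalised CPM was at least 11.8-fold above the floor of the other lines. miR-4652-5p had 56 and 47 reads, miR-3145-3p 39 and 38, and miR-4796-3p 38 and 36, with lower bounds of 6.48-fold, 4.88-fold and 4.69-fold. They lie in introns of GNGT1, a G protein subunit gene, NHSL1 and the zinc finger gene ZBTB20. Replicates of these 4 members differed little.

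Further members at 10 normalised CPM were also highest in Huh-7. miR-4467, in an exon of LRWD1, had 100 and 88 reads there (29.1 ± 1.34 normalised CPM) and at most 4 reads in another library. miR-3660, outside genes on chromosome 5, had 33.7 ± 14.8 normalised CPM and no read elsewhere apart from the second MV-3 library. miR-3909, in an intron of TOM1, was at 39.1 ± 10.8 in Huh-7 and between 6.92 and 8.71 by mean in the other lines, with a limma adjusted p of 0.0653 among the lines. For miR-3605-3p, in an exon of PHC2, the mean was highest in MV-3 with 24.9 ± 2.79, and 20.2 ± 9.92 in ES-2. Its second ES-2 library lay above both MV-3 libraries, and the lines were not called different (limma adjusted p = 0.0346).

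Over all levels, 57 members (19.7%) had reads in both libraries of 1 line and none in another, against 11.9% of all 886 names kept. Of the 57, 40 were in Huh-7, 9 in MV-3, 7 in ES-2 and 1 in A-549. The earlier-named miRNAs of this kind numbered 23 in Huh-7, 15 in A-549, 7 in ES-2 and 3 in MV-3. Among the 57 members, 5 were at 10 normalised CPM and 32 had at most 10 reads in all. When 1 library was left out, so that the other stood for its line, the 57 became 78 to 112, with 112 without the second Huh-7 library, 100 without the first, and 90 without the first library of ES-2 or of MV-3. In ES-2 the member with most reads after miR-3689b-5p, whose sequence had 4 reads under other names in MV-3, was miR-3154 with 14 reads, and in MV-3 those with most reads were miR-4748 with 11 and miR-4442 with 8. In A-549 it was miR-7114-5p with 8 reads, of which the replicates held 7 and 1. For members with so few reads, a difference from the other lines was not detectable at this depth.

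Markers were used to check the labels of the lines. The hepatocyte list (miR-122-5p and miR-885-5p) summed to between 84424 and 89378 normalised CPM in Huh-7 and to at most 40.7 elsewhere. All 3 melanocytic markers (miR-211-5p, miR-509-3p and miR-514a-3p) were at 0 in MV-3, ES-2 and A-549, and summed to between 2.39 and 2.53 in Huh-7, so that these markers were absent from the melanoma line. The 6 epithelial markers of the miR-200 group and miR-205-5p summed to between 1605 and 2339 in the Huh-7 and A-549 libraries and to between 29.6 and 60.4 in ES-2 and MV-3. The 4 haematopoietic markers, with 2 at 10 normalised CPM, summed to between 503 and 554 in ES-2, the line with the miR-3689 reads, and to at most 3.27 elsewhere, and their part in that result was not tested. The 3 muscle markers summed to less than 10 in every library.

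Either arm of a hairpin could be counted, and for 38 hairpins both arms were members. Both arms had the same highest line in 26 of these, a count that was not tested or set against earlier-named hairpins. Some of the pairs had few reads, such as miR-6741 with 12 and 2. For 4 hairpins, miR-3129, miR-3144, miR-3145 and miR-3152, both arms were at 10 normalised CPM, and for 11 others 1 arm was. In miR-3613 the 5p arm had 4369 reads over the 8 libraries and the 3p arm 12, a ratio of 364. In miR-3144 the arms were near equal, with 148 reads of the 5p and 171 of the 3p arm, both highest in Huh-7 with 18.6 ± 7.51 and 23.6 ± 6.39 normalised CPM. miR-3129-5p and miR-3129-3p were also both highest in Huh-7, with 16.8 ± 6.21 and 47.9 ± 3.69.

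**Figure D4:**
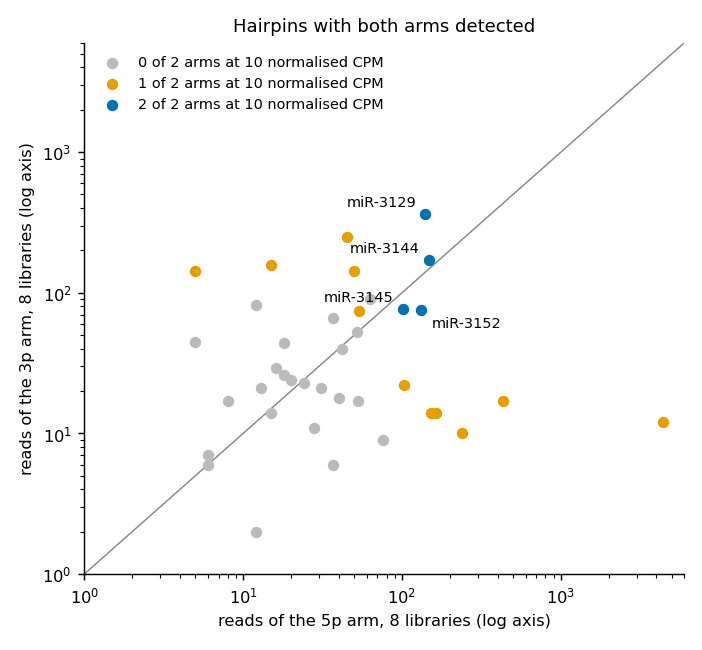
Reads of the 5p arm against reads of the 3p arm, summed over the 8 libraries, for the 38 hairpins with both arms among the members. Axes are logarithmic, the line marks equal reads, and colour gives the number of arms at 10 normalised CPM. The 4 labelled hairpins have both arms at this level, and the point at the right is miR-3613 with 4369 and 12 reads.

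The members also differed among themselves by number. From 3000 to below 4000, 110 of 282 names were members and 27 of them reached 10 normalised CPM. From 4000 to below 5000 these were 78 of 506 names with 11 at this level, and from 5000 to below 6000 they were 24 of 116 with 0. Of 538 names numbered 6000 or higher, 77 were members and 5 reached it: miR-7974, miR-7706, miR-7976, miR-7977 and miR-6803-3p. The median level in the highest line was 4.38, 3.04, 2.64 and 2.41 normalised CPM in these 4 ranges.

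Members were richer in G and C than earlier-named miRNAs. The median GC content was 54.5% over the 260 members with a sequence and 47.6% over 543 earlier-named miRNAs, and a GC content of at least 60% was found in 35.8% and 16.0%. The median length was 22 bases in both, and 84.2% of members and 91.5% of earlier-named miRNAs had 21 to 23 bases. Members at 10 normalised CPM had a median GC content of 47.7%, close to the 47.6% of earlier-named miRNAs at that level. By range of numbers the median was 50.0% from 3000, 54.5% from 4000, 47.7% from 5000 and 61.9% from 6000. A run of 4 or more G bases was present in 37 of 260 members and 38 of 543 earlier-named miRNAs.

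Most members lay within other genes, but less often than earlier-named miRNAs by the shares found. Of the 260 members placed on GRCh38 with GENCODE annotation, 145 lay in introns alone, 58 overlapped an exon of a transcript and 49 (18.8%) lay outside genes on their strand. Of 543 earlier-named miRNAs placed, 325 lay in introns alone, 151 overlapped an exon and 60 (11%) lay outside genes. A hairpin in an intron of at most 200 bases of some transcript was found for 34 members and 11 earlier-named miRNAs. The hairpin was not required to fill the intron, as it does in mirtrons, which are released by splicing rather than by Drosha. Of these 34 members, 25 were numbered 6000 or higher, where 66 members were placed. In this group 1 member reached 10 normalised CPM, miR-6803-3p. It lies in an intron of PPP6R1 of 79 bases, which its hairpin did not fill. A further hairpin within 10000 bases on the same strand was found for 10.4% of members and 46.4% of earlier-named miRNAs. Among members, the miR-3689 group was such a cluster.

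Of the 260 members with a sequence, 14 had the seed of an earlier-named miRNA found in these lines. Of 543 earlier-named miRNAs, 154 had the seed of another earlier-named one. Names without a RefSeq sequence were not compared, so further shared seeds may have been missed. Of the 14 members, 1 was at 10 normalised CPM, miR-3129-5p. It shares the seed of both miR-199 3p names, miR-199a-3p among them, and was highest in Huh-7, with 12.4 and 21.2 normalised CPM there, 6.16 and 11.4 in A-549, 0 and 2.20 in MV-3, and 0 and 3.08 in ES-2. miR-4458 has the seed of the let-7-5p family, known as repressors of growth-promoting mRNAs, and had 8 reads in all, with 1.23 and 3.27 normalised CPM in A-549 and none in ES-2. miR-4429 has the seed of miR-320b, c and d and had 12 reads.

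Hairpins on opposite strands of the same DNA were considered separately, as the use of strand in counting was not stated and reads from such partners cannot then be told apart. This applied to 16 members, of which 10 lay opposite a hairpin of the same number and 6 opposite another. miR-3591-5p lies opposite miR-122, the main miRNA of hepatocytes, at chr18:58451121-58451143. Reads of it were 14 and 11 in Huh-7, 0 and 6 in A-549 and none in ES-2 or MV-3, whereas those of miR-122-5p were 288469 and 252449 in Huh-7, and 12 and 4 in A-549. miR-3074-5p and miR-3074-3p lie opposite miR-24-1. They had 42 and 40 reads in all, and no read of either arm was found in A-549. In that line miR-24-1-5p had 27 and 20 reads. The name miR-24-3p, which is not specific to this hairpin, had 16687 and 11601. miR-3065-5p, opposite miR-338, was highest in MV-3 with 11.8 and 5.49 normalised CPM. In that line miR-338-3p had no read and miR-338-5p had 2 and 0 reads. miR-3065-3p had 17 reads in all. miR-3190-3p, opposite miR-3191, had 7 reads, all in Huh-7. The members opposite a hairpin of the same number included miR-3130-3p, miR-3130-5p, miR-3199, miR-3202, miR-3688-3p, miR-3913-5p, miR-4433b-5p, miR-5583-3p and miR-6715a-3p, which had between 11 and 90 reads. miR-3158-3p, the 1 such member at 10 normalised CPM, has copies on both strands of chr10:101601417-101601497. Its reads in the entries of the 2 copies were 260 and 224, and the summed level was 32.7 ± 10.4 normalised CPM in A-549, 38.4 ± 8.54 in ES-2, 33.9 ± 7.39 in Huh-7 and 12.4 ± 4.40 in MV-3 (limma adjusted p = 0.0295 among lines, not called).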

How the data were processed

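Small RNA-seq libraries of 4 untreated cell lines, 2 per line, were grouped by their labels. Per the study's methods and the submitters' processing notes, the authors clipped reads with Cutadapt (v 1.14), aligned them to GRCh38 with Bowtie2 (v 2.3.2), counted them on miRBase with featureCounts (v 1.5.3) and normalised with edgeR (v 3.18.1). The handling of reads with several positions and of strand was not given in the sources used here. The authors deposited a normalised signal, namely CPM divided by a TMM factor. Each deposited value was a whole multiple of the value of 1 read (100% at a tolerance of 0.001), so that reads were recovered. TMM factors recomputed from them differed by at most 1.1e-15. Libraries held 1173902 to 2670030 miRNA reads, and floors cover counting error only. Entries of a name were summed.

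The members, gene lists and named miRNAs were chosen with earlier results of these data known. Named were the 20 members of highest line mean, per line the 3 with the largest share there among those at 10 normalised CPM, members overlapping another hairpin, members called highest in a line, the 3 on each side of 10 normalised CPM, and the 2 with most reads among those read in 1 line. miR-4458, miR-4429, miR-3129-5p, the hairpins with both arms at 10 and miRNAs named by position or number were added after their values were seen. Tests used limma (v 3.58.1, R 4.3.3) on the log2 of normalised CPM with a pseudocount of 1, a prior that followed the mean abundance, and 4 residual degrees of freedom over 528 names that passed filterByExpr (minimum count 10), with Benjamini-Hochberg adjustment over all of them and a threshold of 0.01. On simulated reads with 4-fold changes in a single line and a common spread for all names, the fit was checked to call most of the changed names. Members whose replicates varied more were not covered by this check. A difference on this scale understates the change of miRNAs with few reads. Over all names tested, the median difference Huh-7 minus ES-2 was 0.34 with TMM and 1.09 without, and that of A-549 minus Huh-7 was -0.09 and -1.39. In limma, 68.2% of the 528 names were called different among lines. Alternatives were RLE factors, library size alone, other filters, a pseudocount of 0.1, edgeR (v 4.0.16), DESeq2 (v 1.42.0), a replicate block, other thresholds, the highest entry of a name and leaving out each library. Placement used GENCODE release 44 and RefSeq on GRCh38. No set test was run.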

Additional observations from a re-analysis of the deposited data

How the results depend on the processing

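The count of members called different among lines (10) was 8 to 14 under the other scalings, filters, tests, thresholds and the replicate block, and 4 to 8 when a library was left out, with 6 without MV-3 replicate 1 and 4 without Huh-7 replicate 1 or 2. The count called highest in 1 line (1, miR-3140-3p) was 3 with library size only, 4 at an adjusted p below 0.05, and 0 without a filter, with DESeq2, with a pseudocount of 0.1 and over names that passed the filter without their highest line (6, 2, 3 and 4 at an unadjusted p below 0.05, the last chosen after seeing the data), and 0 to 1 when a library was left out. It was 0 without ES-2 replicate 2 and without A-549 replicate 1. miR-3140-3p passed the filter through Huh-7 alone, which favoured its call. With library size only, miR-3173-5p reversed, with a difference of -0.97 between its highest and lowest line.

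The rule found 180 members with above 3 reads in place of above 0, 126 at the highest floor of any library, and 323 to 388 when a library was left out and the other stood for its line. At 5 and 20 in place of 10 normalised CPM, 67 and 21 members were counted, 55 with library CPM, 41 with RLE factors or with identical sequences summed (the latter and the highest floor were chosen after seeing the data), and 43 to 48 when a library was left out. Members read in 1 line alone numbered 56 with the highest entry of a name, 60 with at most 3 reads elsewhere, and 78 to 112 when a library was left out, with 90 without ES-2 replicate 1 or MV-3 replicate 1, 100 without Huh-7 replicate 1 and 112 without Huh-7 replicate 2. The highest share of reads, 0.313% in Huh-7, was 0.334% with the highest entry of a name and 0.314% to 0.332% when a library was left out. Causes of these changes were not tested, apart from the looser rule with fewer libraries.

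Same-numbered libraries of different lines did not deviate together in all pairs (correlations of deviations from -0.050 to 0.232), so the numbers were not taken to pair them. The replicate block gave 10 and 1 calls. Depth limits the 92 members below 2 normalised CPM, near the 3-read floor of the shallower libraries.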
